A study of Homo sapiens with 32 samples.

Results

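Chromatin loops were examined at 3 loci where large regulatory domains adjoin each other and where rearrangements that join neighbouring domains are known causes of human limb and skeletal malformations. Loops were taken from 4 deposited in situ Hi-C loop lists when at least 1 anchor lay in the window of the SOX9-KCNJ2 locus (chr17:69500000-73000000), the SHH-LMBR1 locus (chr7:155500000-157000000) or the locus of WNT6, IHH, EPHA4 and PAX3 (chr2:218700000-222700000, called WNT6-PAX3 here), all in hg38. This gave 187 of 45629 loops. They were 61 of 15180 in the wild-type control list, 28 of 5906 in the wild-type sorbitol list, 75 of 18966 in the eGFP-YAP control list and 23 of 5577 in the eGFP-YAP sorbitol list.

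The study asked how hyperosmotic stress changes chromatin contacts. Both lines are HEK293, an established human embryonic kidney line: unmodified wild-type cells, and cells labelled eGFP-YAP, whose YAP, a co-activator of transcription, bears a fluorescent tag. Each line was left untreated (control) or given 200 mM sorbitol for 1 h, and the series' design text adds 1 h without serum beforehand for eGFP-YAP cells. The labels list 3 samples per condition for wild type and 4 per condition for eGFP-YAP, which is 14 of the 32 samples of the series, and each condition has 1 pooled loop list. The 4 lists therefore have no replicates: intervals given below cover counting error only, neighbouring loops are not independent, and conditions were compared without a test. The names of the lists carry a different source name for each line, so line and source cannot be told apart. The labels say HEK293 where the growth protocol says HEK293T, and loop coordinates hold no expression values against which the line could be checked. Sequencing depth is not in the lists. The part that depth plays in the shorter sorbitol lists was not tested.

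Topologically associating domains are stretches of chromatin whose parts contact each other more than they contact the next stretch. At their borders the DNA-binding protein CTCF commonly sits on an oriented motif and halts loop extrusion by cohesin, so that loops tend to join motifs that point at each other. SOX9, a transcription factor of cartilage and testis, SHH, a secreted patterning signal, and EPHA4, an ephrin receptor, each have enhancers spread over a large gene-poor domain, and a limb enhancer of SHH lies inside an intron of LMBR1. KCNJ2 encodes a potassium channel, WNT6 and IHH encode secreted signals, and PAX3 is a transcription factor of neural crest and muscle.

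A loop joins 2 anchors, each a bin of 5 kb. It is written here by its whole extent, from the first base of the left anchor to the last base of the right one, and its span is the distance between the anchor centres. Its score percentile is the rank of the caller's peak score within its own list. A control loop was counted as kept when a sorbitol loop of the same line had both anchor centres within 10 kb, and as lost otherwise. A sorbitol loop with no such control loop was counted as gained. A loop was called domain-spanning when the whole body of 1 of the 8 named genes lay between its anchors or when its span was at least 500 kb, which also counts short loops around a short gene such as IHH.

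Beside the borders of the loops, the reference sequence held matches to the 14-base CTCF core motif, searched by name on both strands with at most 1 mismatch. Such a match lay in 23% of the 122 wild-type control anchors and 39.3% of the 150 eGFP-YAP control anchors at the loci, against 24.9% and 34.1% of all anchors of those lists, and against 9.91% and 9.99% of all anchors moved by 100 kb. The matches below lie in loop anchors beside the borders of the SOX9, SHH and EPHA4 segments, at the EPHA4 start, in the SLC39A11 anchor that was used in all 4 lists, and in anchors of loops around IHH. They are shown because they mark the ends of loops on either side of the borders, or of loops that were kept or reached a gene start. Each is the hg38 sequence in the 5′ to 3′ direction of the motif, with the motif in capitals and 8 flanking bases on each side. The position is that of the motif. Domain borders are not in the lists: domain, end and border here name the segments described below and the stretches under no loop between them. The matches at chr7:156817157-156817170 and chr2:219689865-219689878 lie in the outermost bin of such a stretch. They are named by the side of the loops that end there.
SOX9 domain, outside its left border, minus strand, chr17:70622584-70622597: tgagatggCCAACAGATGGCGCctttgtgc
SOX9 domain, left end, plus strand, chr17:70636715-70636728: cacttcagCCACCAGGTGGAAGtatcagca
SOX9 domain, right end, minus strand, chr17:72540504-72540517: ccgagtggCCACTTGATGGCGCtgtggctc
SOX9 domain, outside its right border, plus strand, chr17:72560396-72560409: taacctgaACACTAGAGGGCACcagagccc
SLC39A11 intron 7, minus strand, chr17:72727708-72727721: actctcagCCAGCAGAGGGAGGcctgtagt
SLC39A11 intron 7, plus strand, chr17:72727861-72727874: gcatctgtACACCAGATGGCAGcagccaca
SHH domain, right end, LMBR1 intron 4, minus strand, chr7:156817157-156817170: ttgtaactCCAGCAGATGGAGCtagaagtt
EPHA4 domain, outside its left border, minus strand, chr2:219689865-219689878: atcttctgCCACTAGGGGGTAGcatgcccc
EPHA4 domain, left end, plus strand, chr2:219736385-219736398: tcatttccCCAGCAGAGGTCACcctttctc
EPHA4 start, minus strand, chr2:221573690-221573703: gcatctggCCGGCAGGTGGCGCggttggct
PAX3 side of the border right of EPHA4, plus strand, chr2:222057426-222057439: ctatacaaCCACTAGATGGCACtaattgtt
CFAP65 intron 10, left of IHH, plus strand, chr2:219029855-219029868: ccacagggCCACCAGGGGGCAGcagacacc
NHEJ1 intron 3, right of IHH, minus strand, chr2:219155231-219155244: tctaagtaACACCAGGGGGCAGtgtttcct

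Taken over the 3 loci, loops were fewer with sorbitol in both lines, few control loops were kept, and most wild-type sorbitol loops were at new positions. In wild type 61 control loops stood against 28 sorbitol loops, a ratio of 0.459 (exact 95% interval 0.282 to 0.729). In eGFP-YAP 75 stood against 23, a ratio of 0.307 (0.183 to 0.495). The whole lists gave ratios of 0.389 and 0.294, both inside these intervals. Kept loops numbered 3 of 61 in wild type, or 4.92% (Wilson 95% interval 1.69 to 13.5), against 7.81% of all wild-type control loops. In eGFP-YAP 10 of 75 were kept, or 13.3% (7.41 to 22.8), against 9.28% of the whole list. Both intervals include the share of the whole list. Lost loops were 58 and 65, where the whole lists lost 92.2% and 90.7%. When the same bins were required at both anchors, 0% and 6.67% were kept, and among the higher-scoring 50% of each list the eGFP-YAP share was 6.82%.

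Gained loops were 25 of 28 in wild type, or 89.3% (72.8 to 96.3), beside 79.9% of the whole list, and 13 of 23 in eGFP-YAP, or 56.5% (36.8 to 74.4), beside 68.4%. Of the gained loops, 1 wild-type loop and 0 eGFP-YAP loops matched a control loop of the opposite line, beside 13.1% and 6.79% of all gained loops. Loops gained at the same place in both lines numbered 6 of the 25 and 6 of the 13, where the whole lists gave 15.5% and 19.2%. As a measure of how far lists differ without sorbitol, 20 of the 61 wild-type control loops were found in the eGFP-YAP control list (32.8%, whole list 40.2%) and 21 of the 75 of eGFP-YAP in the list of wild-type controls (28.0%, whole list 32.2%). When the list searched was cut by score to as many loops as the sorbitol list of the first line, these counts were 5 (8.20%, whole list 19.5%) and 7 (9.33%, whole list 17.7%). The sorbitol lists matched 4.92% and 13.3% of control loops at the loci, and 7.81% and 9.28% over the whole lists. At the loci wild type lay below its shortened control list and eGFP-YAP above. Over the whole lists both lay below. The part that list length plays in the kept share was not tested.

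The domain-spanning loops went from 23 to 6 in wild type, with 1 kept, and from 35 to 9 in eGFP-YAP, with 5 kept. Loops of at least 500 kb made up 18 of the 61 wild-type control loops and 26 of the 75 eGFP-YAP control loops, where 17.6% and 21.2% of the whole lists were as long. Of these, 0 of 18 were kept in wild type, which allows a share of up to 17.6% (Wilson 95% interval), and 3 of 26 in eGFP-YAP, or 11.5% (4.00 to 29.0). The whole lists kept 5.21% and 9.37% of loops of this length.

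Some stretches lay between the anchors of no loop in any of the 4 lists. There were 8 of them inside the windows, 360 kb or 4.00% of the windows in all, whereas 27.6% of the bins of the genome lay under no loop, a share that includes unsequenced parts of the reference. An anchor may itself lie in such a stretch. At the loop ends within 25 kb of these stretches, loops to the left (24 ends) held 0 plus and 6 minus motif matches, and loops to the right (41 ends) held 4 plus and 1 minus. That 1 minus match, chr17:70630112-70630125, was not among those printed above. It lay in the left anchor of the wild-type control loop chr17:70630001-71090000, at the left border of the SOX9 segment. The matches thus mostly faced away from each stretch, into the loops. Strands at loop ends elsewhere were not counted, so this cannot be called particular to these stretches. The stretches part the loci into 11 segments, named here for a gene in them, and since they were drawn from the loops themselves the segments serve for description.

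**Figure D1:**
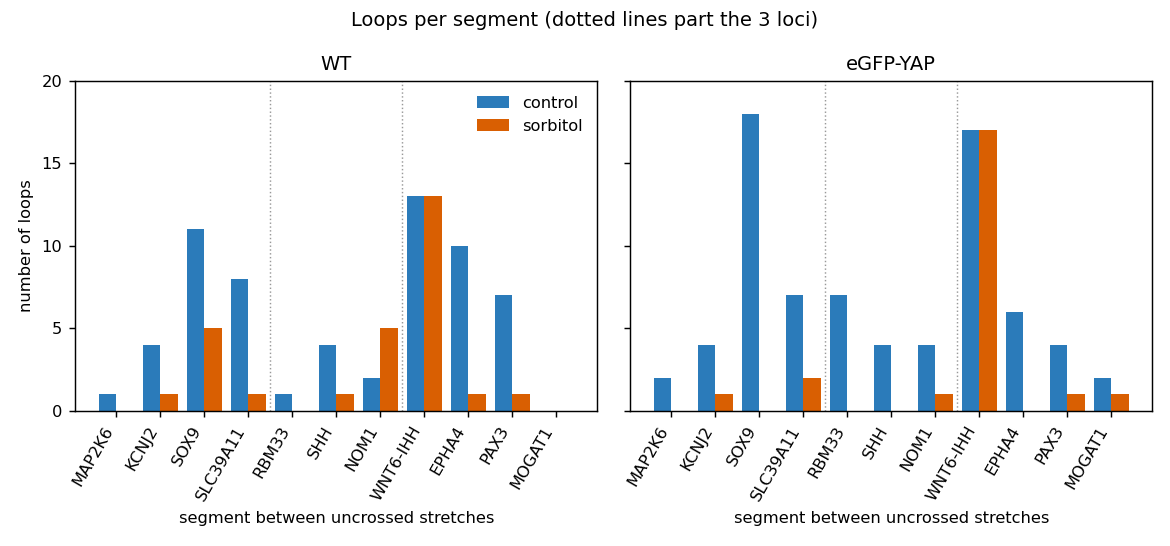
Number of loops per segment between the stretches that no loop crossed, in wild type (left) and eGFP-YAP (right), with control and sorbitol lists as paired bars. The WNT6-IHH segment held 13 and 13 loops in wild type and 17 and 17 in eGFP-YAP, while the SOX9 segment went from 11 to 5 and from 18 to 0, and the EPHA4 segment from 10 to 1 and from 6 to 0.

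The counts differed between segments. The gene-poor SOX9 segment (1910 kb, 1 protein-coding gene start) went from 11 to 5 loops in wild type. In eGFP-YAP it went from 18 to 0, and none were kept in either line. The SHH segment (1010 kb, 2 gene starts) went from 4 to 1 and from 4 to 0, with none kept. The EPHA4 segment (2235 kb, 1 gene start) went from 10 to 1 and from 6 to 0, with none kept. Over the whole lists, 7.81% of wild-type and 9.28% of eGFP-YAP control loops were kept, so few would be kept in segments of this size. The gene-dense WNT6-IHH segment (985 kb, 40 gene starts) held 13 loops before and 13 after in wild type and 17 before and 17 after in eGFP-YAP, with 1 and 5 control loops kept. In that segment the number of loops was equal and most of the positions were new by the 10 kb rule. The ratio's interval ran from 0.427 to 2.34 in wild type and from 0.480 to 2.08 in eGFP-YAP. The whole lists had ratios of 0.389 and 0.294. The segment was drawn from these same loops and neighbouring loops are not independent, so the intervals are no test of a difference between segments.

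**Figure D2:**
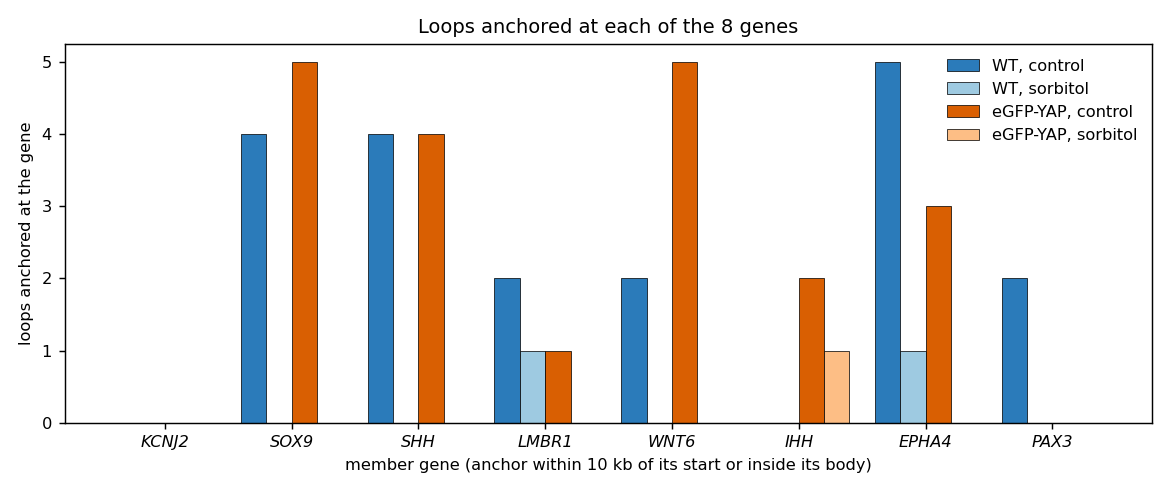
Number of loops anchored within 10 kb of the start or inside the body of each of the 8 genes, with 1 bar for each list. Control bars reach 5 loops, and across all 8 genes the sorbitol lists hold 2 loops in wild type (1 at LMBR1 and 1 at EPHA4) and 1 in eGFP-YAP (at IHH).

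Of the 8 genes, SOX9, SHH and WNT6 were anchors in both control lists and in neither sorbitol list. Counted by the gene start alone, 7.58% of the protein-coding genes of the genome showed this pattern. For WNT6 in eGFP-YAP it rests on the 10 kb limit: 1 of its control loops was kept, with its right anchor 5 kb further from the gene. Loops anchored at SOX9 numbered 4 in the wild-type control list and 5 in the eGFP-YAP control list, and those at SHH 4 and 4. WNT6 had 2 and 5, and 0 and 0 with sorbitol. EPHA4 had 5 and 3, and 1 and 0 with sorbitol. LMBR1 had 2 and 1, and 1 and 0 with sorbitol. PAX3 had 2 loops in the wild-type control list and 0 in the other 3 lists. IHH had 2 loops in the eGFP-YAP control list, 1 in the eGFP-YAP sorbitol list and 0 in both wild-type lists. No loop of any list was anchored at KCNJ2.

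At the SOX9-KCNJ2 locus, loops went from 24 to 7 in wild type (ratio 0.292, 0.106 to 0.698) and from 31 to 3 in eGFP-YAP (0.0968, 0.0189 to 0.310). Kept loops were 1 of 24 and 3 of 31, beside 7.81% and 9.28% of the whole lists. Gained loops were 6 of 7 and 0 of 3, beside 79.9% and 68.4% of the whole lists. Domain-spanning loops went from 8 to 0 and from 18 to 2. Bins lying between the anchors of at least 1 loop went from 89.0% to 36.0% of the window in wild type and from 98.9% to 37.3% in eGFP-YAP, beside 54.2% to 26.5% and 65.4% to 28.9% of the genome.

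**Figure D3:**
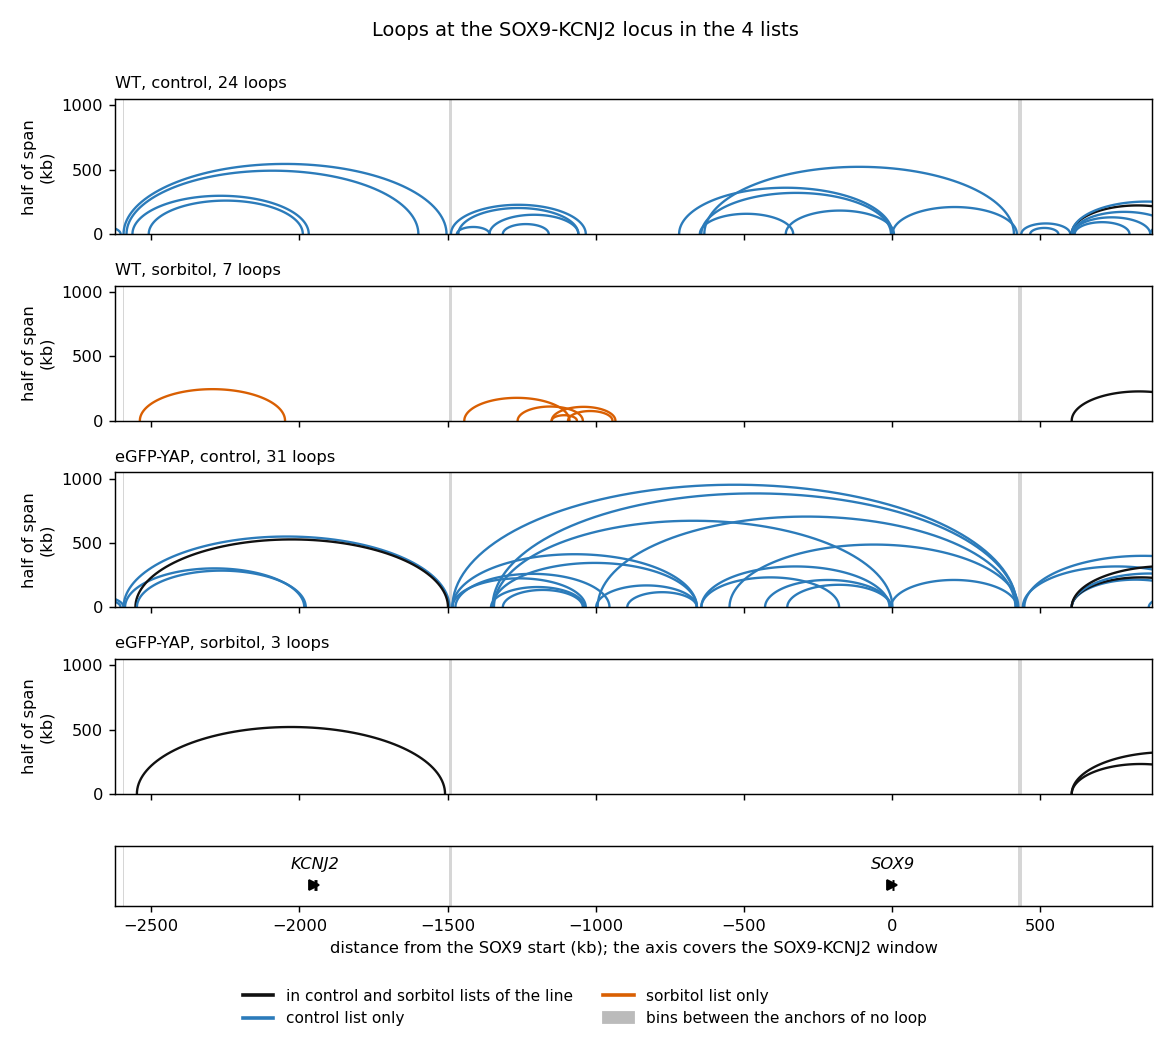
Each arc is 1 loop of the SOX9-KCNJ2 locus, drawn between its anchor centres, with the distance from the SOX9 start on the x axis (kb) and the arc's height, from the loop's midpoint to an anchor, on the y axis (kb), 1 panel per list. Arcs over SOX9 are present in both control panels and in neither sorbitol panel; arcs that leave the window are clipped at its edge.

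Loops at SOX9 itself joined the gene to points inside its domain. In wild type the highest-scoring control loop of the locus, chr17:72120001-72545000, ran 420 kb from the SOX9 start to the right end of the domain, at score percentile 88.5, and its right anchor held the minus-strand match at chr17:72540504-72540517. A loop of the same place, chr17:72115001-72545000, was in the eGFP-YAP control list at percentile 60.4. Leftward, chr17:71475001-72120000 (640 kb, percentile 77.3) in wild type matched chr17:71475001-72115000 (635 kb, 66.2) in eGFP-YAP, and chr17:71760001-72130000 (365 kb, 24.0) matched chr17:71765001-72120000 (350 kb, 29.2). These 3 places were shared by both control lists. The wild-type list alone had chr17:71400001-72125000 (720 kb, 80.2). The eGFP-YAP list alone had chr17:70775001-72125000, which reached 1345 kb to the left of the SOX9 start (69.3), and chr17:71690001-72120000 (425 kb, 61.1). None of the 9 loops had a sorbitol counterpart in either line. Over the whole lists, 92.2% of wild-type and 90.7% of eGFP-YAP control loops had none in their own line.

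The longest loop of the locus, chr17:70635001-72545000 in the eGFP-YAP control list, spanned 1905 kb from one end of the SOX9 segment to the other at percentile 90. Its anchors held the plus-strand match at chr17:70636715-70636728 and the minus-strand match at chr17:72540504-72540517, which point at each other. A second long loop to the same right end, chr17:70770001-72545000 (1770 kb), was at percentile 91.9. Both were lost, as was the only wild-type loop with SOX9 wholly between its anchors, chr17:71485001-72535000 (1045 kb, percentile 80.2). In the wild-type sorbitol list 5 loops lay in the SOX9 segment, all gained: chr17:70675001-71035000, chr17:70855001-71080000, chr17:70970001-71060000, chr17:70970001-71190000 and chr17:71025001-71180000. They spanned 85 to 355 kb, lay towards the left end of the segment, away from SOX9, and none reached the gene.

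The border between the KCNJ2 and SOX9 segments, chr17:70625001-70635000, was 10 kb wide and lay under no loop in any list. On its left, both control lists had a loop over KCNJ2 from inside MAP2K6, a kinase gene: chr17:69525001-70620000 (1090 kb, percentile 25) in wild type and chr17:69525001-70630000 (1100 kb, 65.7) in eGFP-YAP. Both were lost. Another loop over KCNJ2, chr17:69565001-70625000 (1055 kb, percentile 92.3) in the eGFP-YAP control list, had a plus-strand match in its left anchor and the minus-strand match at chr17:70622584-70622597 in its right one. It was kept: the eGFP-YAP sorbitol list held chr17:69570001-70615000 (1040 kb) at percentile 72.7. This was the only loop over KCNJ2 with sorbitol. In wild type the second-highest control loop of the locus, chr17:69555001-70155000 (595 kb, 81.3), ended left of KCNJ2 and was lost, and 1 loop was gained, chr17:69580001-70075000 (490 kb, 42.5).

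Right of the SOX9 domain, beyond chr17:72545001-72560000, loops kept with sorbitol shared an anchor in intron 7 of the zinc transporter gene SLC39A11. That anchor, chr17:72725001-72730000, held 1 minus-strand and 1 plus-strand match, printed above, and served 9 loops over the 4 lists. Each of the 4 lists had a loop from it towards SSTR2, a somatostatin receptor gene, and COG1, a Golgi complex gene. It was chr17:72725001-73175000 in wild-type controls (percentile 62), chr17:72725001-73185000 with sorbitol (84.2), and chr17:72725001-73195000 in eGFP-YAP both before (89.7) and after sorbitol (47.9). Within 10 kb the wild-type sorbitol loop matched the other 3, whereas the wild-type control loop lay 20 kb from the eGFP-YAP loops and matched neither. In eGFP-YAP a loop to SDK2, an adhesion gene, was kept as well: chr17:72725001-73370000 (640 kb, 87.7) in controls and chr17:72725001-73380000 (650 kb, 92.2) with sorbitol. The highest-scoring eGFP-YAP control loop of the locus, chr17:72565001-73370000 (800 kb, 95.4), also ended in SDK2 and was lost, as was chr17:72555001-72725000 (165 kb, 80.2) in wild type.

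At the SHH-LMBR1 locus, loops went from 7 to 6 in wild type (ratio 0.857, 0.238 to 2.98) and from 15 to 1 in eGFP-YAP (0.0667, 0.00158 to 0.433). Kept loops were 1 of 7 and 0 of 15, the latter of which allows a share of up to 20.4%. The whole lists kept 7.81% and 9.28%. Gained loops were 5 of 6 and 1 of 1, beside 79.9% and 68.4% of the whole lists. Domain-spanning loops went from 4 to 1, with none kept, and from 5 to 0. Bins under a loop went from 74.7% to 46.3% of the window in wild type and from 88.7% to 3.00% in eGFP-YAP.

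**Figure D4:**
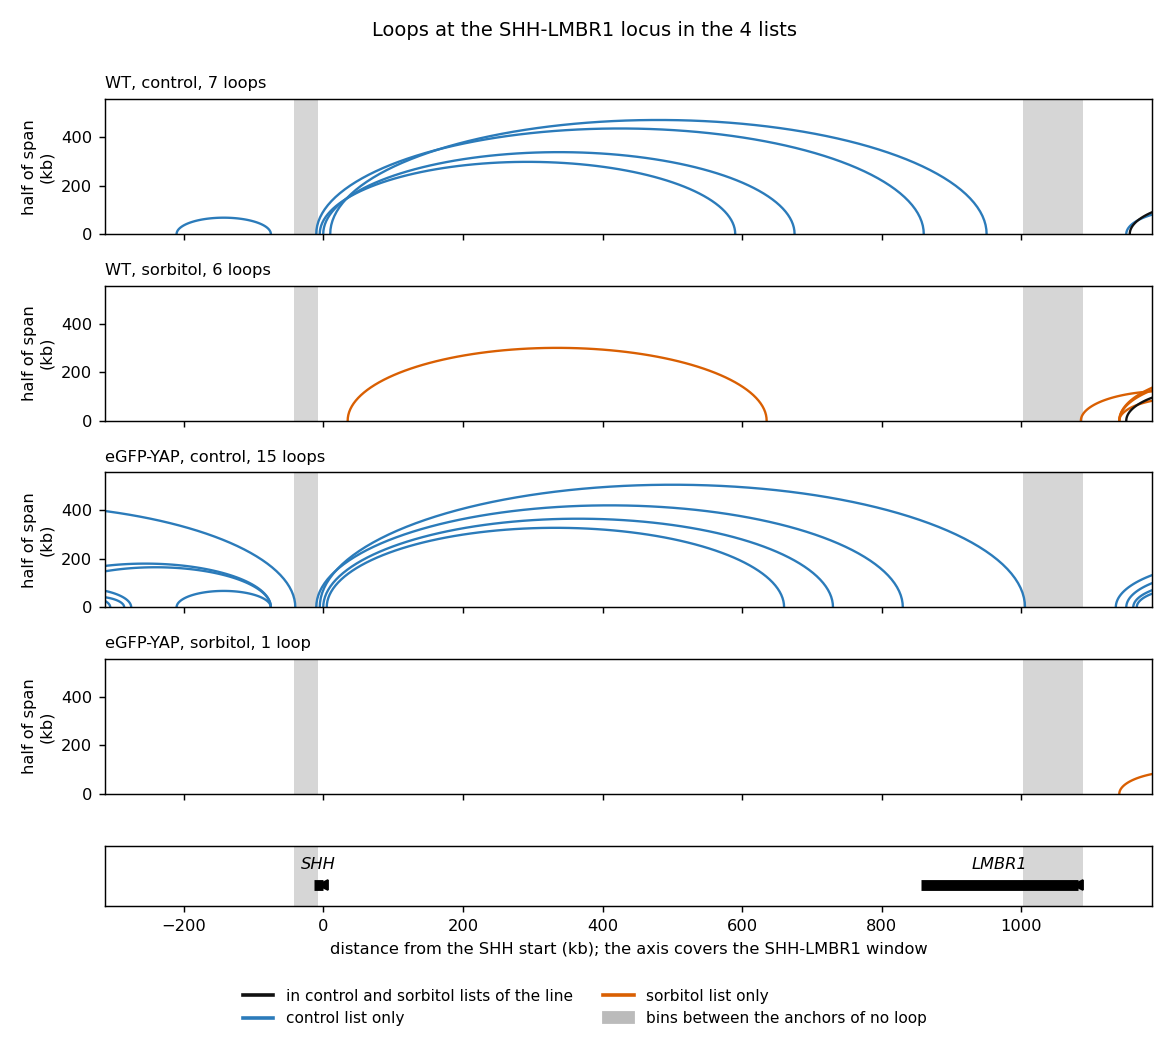
Loops of the SHH-LMBR1 locus as arcs between anchor centres, with the distance from the SHH start on the x axis (kb) and the arc's height, from the loop's midpoint to an anchor, on the y axis (kb), 1 panel per list. Control arcs from SHH to LMBR1 and to points between them are absent from both sorbitol panels. The wild-type sorbitol panel has 1 arc of 600 kb between these genes that starts right of SHH. Most sorbitol arcs start at the right edge of the window, near NOM1.

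All 8 loops anchored at SHH ran rightwards, over 595 to 940 kb in the wild-type control list and 655 to 1010 kb in the eGFP-YAP control list. In wild type, chr7:155810001-156490000 (675 kb) from the SHH start stood at percentile 95.8, the highest of the locus. A loop to LMBR1, chr7:155820001-156765000 (940 kb, 88.5), ended over exons 6 to 8 of that gene, and chr7:155800001-156675000 (870 kb, 30.2) ended where LMBR1 and RNF32 overlap. The fourth was chr7:155805001-156405000 (595 kb, 60.9). In eGFP-YAP the longest loop, chr7:155805001-156820000, joined SHH to LMBR1 intron 4 over 1010 kb at percentile 94.7, and its right anchor held the minus-strand match at chr7:156817157-156817170. The others were chr7:155815001-156475000 (92.9), chr7:155810001-156545000 (52.8) and chr7:155800001-156645000 (38.4), the last of them at the start of RNF32. The 4 loops of one line matched none of the 4 of the other within 10 kb, although all 8 left anchors lay within chr7:155800001-155825000. Genome-wide, a match in the opposite control list existed for 40.2% of control loops when wild type was searched for, and 32.2% when eGFP-YAP was. With 4 loops per line, a line difference particular to SHH was not tested.

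With sorbitol no loop of either list was anchored at SHH. The SHH segment held 1 sorbitol loop, chr7:155845001-156450000 in wild type (600 kb, percentile 34.9), whose left anchor lay beyond 10 kb of the gene. By the more distant anchor it lay 40 kb from a wild-type control loop and 30 kb from an eGFP-YAP one. The stretches that bound the segment, chr7:155770001-155805000 and chr7:156815001-156900000, lay under no loop. Left of SHH, the eGFP-YAP control loop chr7:154920001-155775000 (850 kb, 76.8) ended in RBM33 and was lost.

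Of the other sorbitol loops of this locus, 1 began near the LMBR1 start and the rest in NOM1, a nucleolar protein gene. All ran to the right, with their right anchors outside the window. The loop chr7:156950001-157145000 to UBE3C, a ubiquitin ligase gene, was gained at the same bins in wild type (percentile 64.7) and in eGFP-YAP (75.9). Wild type also gained chr7:156895001-157145000 (36.4), with its left anchor within 10 kb of the LMBR1 start, and chr7:156950001-157395000 (41.0). A further wild-type gain, chr7:156950001-157340000 (63.4) to the start of the chaperone gene DNAJB6, matched an eGFP-YAP control loop, chr7:156945001-157340000 (5.05), that eGFP-YAP lost. The 1 kept loop of the locus, in wild type, was chr7:156965001-157255000 in controls (5.32) and chr7:156960001-157245000 with sorbitol (6.20). Loops of this segment went from 2 to 5 in wild type and from 4 to 1 in eGFP-YAP.

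At the WNT6-PAX3 locus, loops went from 30 to 15 in wild type (ratio 0.500, 0.250 to 0.959) and from 29 to 19 in eGFP-YAP (0.655, 0.347 to 1.21). Kept loops were 1 of 30 (3.33%, 0.591 to 16.7) and 7 of 29 (24.1%, 12.2 to 42.1). The wild-type interval includes the 7.81% of its whole list. The eGFP-YAP interval lies above the 9.28% of its whole list, and it treats neighbouring loops as independent. Gained loops were 14 of 15 and 12 of 19, beside 79.9% and 68.4% of the whole lists. Domain-spanning loops went from 11 to 5 with 1 kept, and from 12 to 7 with 3 kept.

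**Figure D5:**
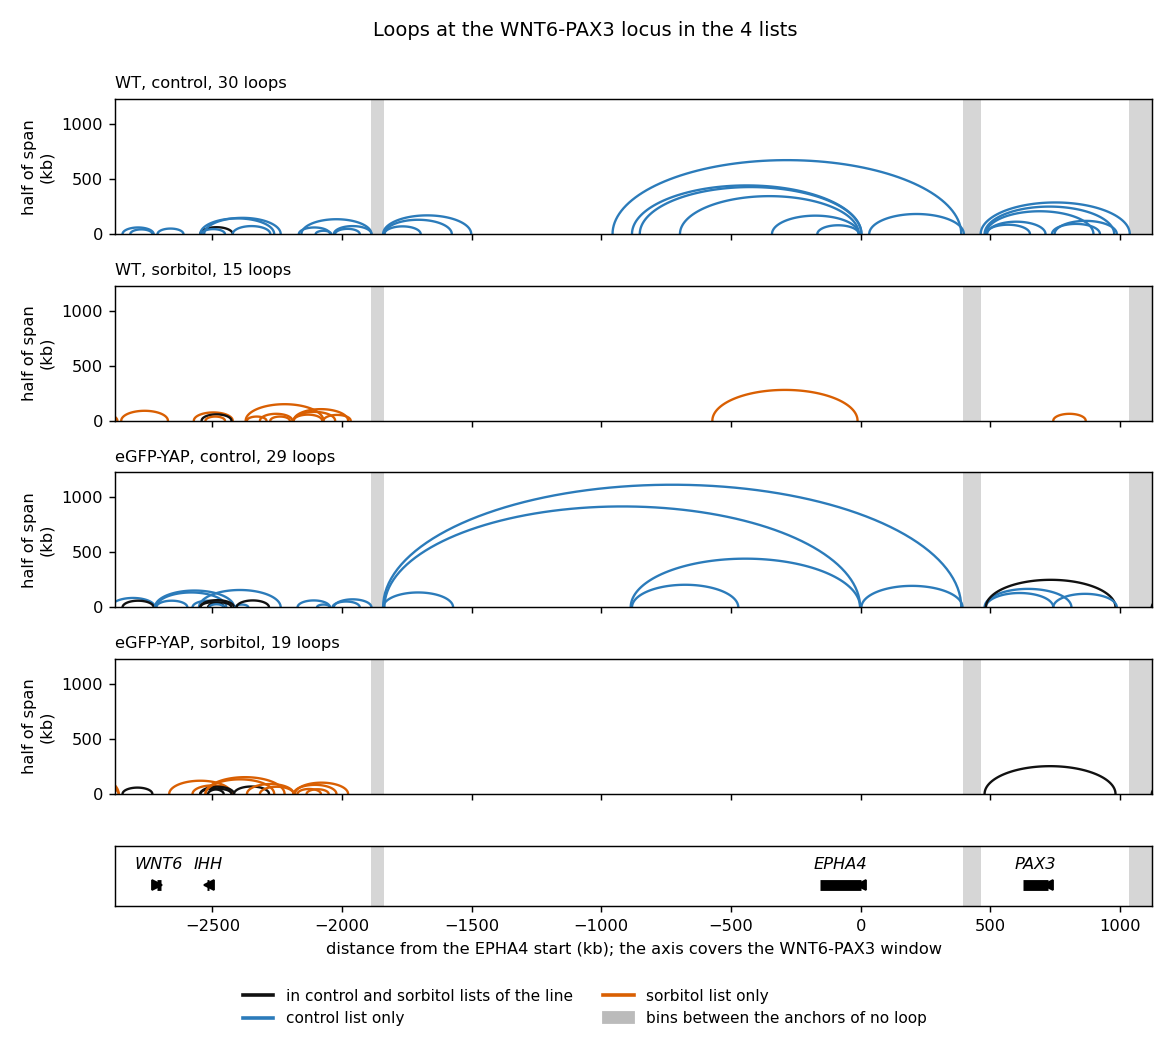
Loops of the WNT6-PAX3 locus as arcs between anchor centres, with the distance from the EPHA4 start on the x axis (kb) and the arc's height, from the loop's midpoint to an anchor, on the y axis (kb), 1 panel per list. Control arcs reach EPHA4 from the left in both lines, sorbitol arcs lie mostly around WNT6 and IHH, and 1 sorbitol arc, in wild type, ends in EPHA4.

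In the EPHA4 segment all 16 control loops were lost, where the whole lists lost 92.2% in wild type and 90.7% in eGFP-YAP. The longest member loop of all, chr2:219730001-221965000 in the eGFP-YAP control list, spanned 2230 kb over EPHA4 at percentile 93.0. From the same left end, chr2:219735001-221575000 ran 1835 kb to the EPHA4 start (85.9), with the plus-strand match at chr2:219736385-219736398 and the minus-strand match at chr2:221573690-221573703 pointing at each other. An 885 kb loop to the EPHA4 start was in both control lists, chr2:220690001-221580000 in wild type (84.9) and chr2:220685001-221575000 in eGFP-YAP (76.5). In wild type chr2:220720001-221580000 (54.0), chr2:220875001-221570000 (84.3), chr2:221230001-221570000 (81.4) and chr2:221405001-221570000 (62.9) also ended at the gene. To the right, chr2:221605001-221975000 in wild type (85.8) and chr2:221575001-221970000 in eGFP-YAP (77.2) ended at the far border of the segment. The longest wild-type loop, chr2:220615001-221965000 (1345 kb, 70.8), passed over EPHA4.

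Sorbitol left 1 loop in this segment, in wild type: chr2:221000001-221565000 (560 kb), gained, with its right anchor over exon 3 of EPHA4, at percentile 85.5. The left border of the segment, chr2:219685001-219735000, and the right one, chr2:221970001-222040000, lay under no loop in any list. At the left border the match on the IHH side was on the minus strand and the match on the EPHA4 side on the plus strand.

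The WNT6-IHH segment kept loops and gained others around IHH. A loop over IHH from CFAP65, a cilium protein gene, to NHEJ1, a DNA repair gene, was in all 4 lists. It was chr2:219025001-219155000 in wild-type controls (percentile 34.6), chr2:219030001-219150000 with sorbitol (46.2), and chr2:219025001-219160000 in eGFP-YAP before (22.5) and after sorbitol (49.1). In the eGFP-YAP lists its anchors held the plus-strand match at chr2:219029855-219029868 and the minus-strand match at chr2:219155231-219155244. A shorter loop from the same left anchor, chr2:219025001-219120000, was kept at the same bins in eGFP-YAP (23.8 and 21.5). Its wild-type counterpart, chr2:219030001-219125000 (53.6), was lost. The loop from IHH itself into NHEJ1, chr2:219055001-219150000, was kept at the same bins in eGFP-YAP (34.0 and 66.2), and chr2:219060001-219120000 (2.17) was lost.

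Gained loops around IHH included 1 place common to both lines, chr2:219000001-219155000 in wild type (79.1) and chr2:218995001-219155000 in eGFP-YAP (83.3). Wild type gained chr2:219045001-219125000 (3.03), 15 kb from a wild-type control loop. The eGFP-YAP list gained chr2:218905001-219150000 (0.771), chr2:219045001-219315000 (27.7) and chr2:219045001-219355000 (42.5). The first lay 50 kb and each of the others 25 kb from an eGFP-YAP control loop. Loops with IHH wholly between their anchors numbered 4 in the wild-type control list and 3 with sorbitol, and 6 and 6 in eGFP-YAP. Right of IHH, a loop from NHEJ1 and SLC23A3 to the receptor phosphatase gene PTPRN was kept in eGFP-YAP, as chr2:219165001-219295000 (56.1) and chr2:219155001-219295000 (36.1).

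WNT6 had no anchor in its body or within 10 kb of its start in the sorbitol lists. Its control loops were chr2:218725001-218850000 (52.9) and chr2:218860001-218965000 (25.5) in wild type. In eGFP-YAP they were chr2:218725001-218850000 (65.2), chr2:218680001-218855000 (24.4), chr2:218850001-219160000 (69.5), chr2:218855001-218980000 (29.9) and chr2:218855001-219130000 (37.5). The first eGFP-YAP loop, from TTLL4, a tubulin-modifying enzyme gene, was kept as chr2:218725001-218845000 (10.7), whose right anchor was no longer within 10 kb of the WNT6 start. In wild type 1 gained loop, chr2:218720001-218905000 (36.9), had WNT6 wholly between its anchors.

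Between IHH and the EPHA4 border, several gained loops had an anchor at the aminopeptidase gene DNPEP. In the 2 control lists the 70 kb stretch chr2:219335001-219405000, which overlaps DNPEP, lay between the anchors of no loop, and was picked out here for that. Loops with an anchor inside it numbered 1 in the wild-type control list and 5 with sorbitol, and 2 in the eGFP-YAP control list and 6 with sorbitol. The control anchors lay in its outermost bins, as the choice of the stretch requires. The difference between these counts was therefore fixed in part by that choice. The loop to TMEM198, chr2:219385001-219550000 in wild type (85.5) and chr2:219385001-219555000 in eGFP-YAP (97.8), was gained in both lines and was the highest-scoring sorbitol loop of the locus in eGFP-YAP. The loops to the STK11IP start, chr2:219385001-219600000 (22.9) and chr2:219390001-219600000 (17.5), and the loops from TUBA4B, chr2:219255001-219385000 (5.35) and chr2:219255001-219390000 (46.3), were likewise gained in wild type and in eGFP-YAP. So was the loop from the deadenylase subunit gene CNOT9 to TTLL4, chr2:218570001-218710000 (34.3) and chr2:218565001-218715000 (8.86).

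The other gains of this segment were in 1 line each. In wild type they were chr2:219200001-219505000 (12.9), chr2:219205001-219285000 (17), chr2:219295001-219375000 (47.3), chr2:219385001-219500000 (60.1) and chr2:219500001-219610000 (30.9). In eGFP-YAP they were chr2:218270001-218715000 (82.7), chr2:219205001-219390000 (66.5), chr2:219400001-219495000 (13) and chr2:219435001-219525000 (11.8). Their anchors lay in or near ZFAND2B, GMPPA, DNAJB2, PTPRN, STK11IP, AAMP, SPEG and ASIC4.

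The PAX3 segment went from 7 to 1 loops in wild type and from 4 to 1 in eGFP-YAP. A loop over PAX3 into SGPP2, a lipid phosphatase gene, was in both control lists, chr2:222050001-222555000 in wild type (500 kb, percentile 80.9) and chr2:222055001-222560000 in eGFP-YAP (500 kb, 66.2). It was lost in wild type and kept in eGFP-YAP as chr2:222050001-222560000 (505 kb, 60.1). The left anchor of the eGFP-YAP control loop held the plus-strand match at chr2:222057426-222057439. Loops ending in PAX3, chr2:222055001-222230000 (4.97) and chr2:222060001-222290000 (79.1) in wild type, were lost. The highest-scoring control loops of the locus lay here too, chr2:222035001-222615000 over PAX3 to FARSB in wild type (575 kb, 86.3) and chr2:222315001-222565000 in eGFP-YAP (245 kb, 95.7), and both were lost. The 1 wild-type sorbitol loop was gained, chr2:222315001-222445000 (49.1). At the edge of the window, chr2:222695001-222940000 from MOGAT1 to ACSL3, both lipid enzyme genes, was kept at the same bins in eGFP-YAP (78.1 and 36.2).

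Among the 56 protein-coding genes that start in the 3 windows, those with an anchor within 10 kb of the start numbered 16 in the wild-type control list, 23 in the wild-type sorbitol list, 21 in the eGFP-YAP control list and 23 in the eGFP-YAP sorbitol list. These are 28.6%, 41.1%, 37.5% and 41.1%, beside 29.2%, 27.8%, 37.6% and 28.6% of the 19970 protein-coding genes of the genome. The intervals for both sorbitol lists, 29.2 to 54.1, begin above the genome's shares. Counted by anchor, the loci instead lay below the whole sorbitol lists. A protein-coding gene start lay in 5.36% (1.84 to 14.6) of wild-type sorbitol anchors at the loci, beside 21.3% in the whole list. For eGFP-YAP this share was 17.4%, with an interval (9.09 to 30.7) that includes the 26.4% found in its whole list. Of the 46 genes of the WNT6-PAX3 window, 14 and 17 had an anchor within 10 kb of the start in the control lists. In the sorbitol lists 21 and 22 had one. Neighbouring genes share anchors, so these are not independent counts. In both sorbitol lists and in neither control list were 10 genes, all in this window: TTLL4, ZFAND2B, GLB1L, STK16, TUBA4B, ENSG00000286143, SPEGNB, GMPPA, ASIC4 and STK11IP. They are 17.9% of the 56, beside 5.22% of the genes of the genome, and several of them share an anchor. The reverse pattern, both control lists and neither sorbitol list, was shown by 4 genes: SOX9, SHH, WNT6 and RESP18. They are 7.14% of the 56, beside 7.58% of the genome.

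Anchors of the sorbitol loops at the loci held a CTCF motif match in 7.14% of 56 cases in wild type (2.81 to 17) and 28.3% of 46 in eGFP-YAP (17.3 to 42.5). The whole sorbitol lists had 21.2% and 28.2%, and their anchors moved by 100 kb had 12.2% and 12.7%. The wild-type interval lies below its whole list, but several of these loops share an anchor bin, so the anchors are not independent counts. Moved by 100 kb, the sorbitol anchors at the loci had 14.3% in wild type and 10.9% in eGFP-YAP. For control anchors at the loci, the intervals (16.4 to 31.2 and 31.9 to 47.3) include the shares of the whole lists. With both anchors matched, 8 of 12 eGFP-YAP control loops and 3 of 5 wild-type control loops had motifs pointing at each other, as had 2 of 3 eGFP-YAP sorbitol loops. The same share was not taken over the whole lists, so these counts have no background here. No wild-type sorbitol loop had a match in both anchors. The level of these shares depends on the motif rule: without a mismatch they were 5.74% and 6.67% of control anchors and 0% and 8.70% of sorbitol anchors.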

How the data were processed

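The 4 deposited lists give the coordinates of both anchors of each loop, with column headers of the SIP loop caller. Per the file headers, a list carries a peak score, a regional peak score and a contact value, which are scores on unstated scales, and a probability of enrichment, a deposited fraction of at least 0.900 in every list. Only the peak score was used, to rank loops within a list. The submitters' processing notes name hg38 with no role. Caller version and settings, aligner, contact-map normalisation and depth are not given in the sources used here. The name of a list gave its condition. No column lacked a group (0 columns).

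Loops were matched with both anchor centres within 10 kb. Genes came from GENCODE 44, and the Ensembl canonical transcript gave exon and intron numbers. The CTCF motif was searched in hg38 with at most 1 mismatch, and each anchor was also moved by 100 kb. A further match at the SHH-LMBR1 locus is not reported here. Shares have Wilson and ratios exact (Clopper-Pearson) 95% intervals. Matching and motif search were tested on simulated data. Python 3.11.15, numpy 2.4.6, pandas 2.3.3, scipy 1.17.1 and matplotlib 3.10.9 were used.

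The loci, the 8 genes and the lists of genes were chosen with earlier results of these data known, and the segments were drawn from the loops described. Loops named at each locus were every kept and every gained loop, the 3 highest-scoring and the longest control loop of each line, every loop anchored at 1 of the 8 genes, and every domain-spanning loop in both control lists. Alternatives changed the matching distance, the score filter, the list length, the place of the second anchor, the merging of neighbours and the motif rule. Samples of the time course, HCT116 cells and eGFP-YAPdTAD cells were not used here.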

Additional observations from a re-analysis of the deposited data

Results flagged for a closer look

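Sorbitol minus control was set side by side in both lines for 20 values (5 kinds at each of the 3 loci and over all of them), and in 4 of them the lines went opposite ways. With 1 list per condition these differences were not tested, and the denominators are small.

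At the SOX9-KCNJ2 locus the median span changed by -165 kb in wild type (385 to 220 kb, 24 and 7 loops) and by 125 kb in eGFP-YAP (525 to 650 kb, 31 and 3 loops). Anchors holding a protein-coding gene start changed there by -6.25 percentage points in wild type (3 of 48 to 0 of 14 anchors) and by 13.4 points in eGFP-YAP (2 of 62 to 1 of 6). At the SHH-LMBR1 locus the same share changed by 1.19 points in wild type (1 of 14 to 1 of 12) and by -13.3 points in eGFP-YAP (4 of 30 to 0 of 2). Over the 3 loci it changed by -1.20 points in wild type (8 of 122 to 3 of 56) and by 8.06 points in eGFP-YAP (14 of 150 to 8 of 46). In the whole lists the share was higher with sorbitol in both lines, at 21.3% against 5.74% of anchors in wild type and 26.4% against 7.70% in eGFP-YAP.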

How the results depend on the processing

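No paired analysis was possible because each condition has 1 pooled list, and for the same reason no replicate could be left out. Of 51 alternative values, 29 stayed close to the reported one and 22 moved. Kept shares became 0% in wild type and 6.67% in eGFP-YAP with identical bins, and 6.82% in eGFP-YAP in the higher-scoring 50%. Gained shares became 100% and 78.3% with identical bins. In the higher-scoring 50% the loci held 31 and 8 wild-type loops and 44 and 9 eGFP-YAP loops (control and sorbitol), and the domain-spanning loops were 15 (wild-type control), 2 (wild-type sorbitol) and 4 (eGFP-YAP sorbitol). With span of at least 500 kb alone, the sorbitol lists held 2 and 3 domain-spanning loops. Motif shares in the order wild-type control and sorbitol, eGFP-YAP control and sorbitol were 5.74%, 0%, 6.67% and 8.70% without a mismatch, and 50%, 37.5%, 63.3% and 56.5% with anchors widened by 5 kb. Matching at 25 kb, the shortened control list, both anchors inside the window and merged neighbours moved no kept or gained share beyond its interval. At 25 kb the gained shares were 78.6% in wild type and 39.1% in eGFP-YAP. From the 2 control lists alone, an alternative chosen after seeing the data, there were 10 uncrossed stretches in place of 8. Lists without depth do not show whether a missing loop was absent or below the caller's limit.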
